A study of Mus musculus with 4 samples.

Results

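The MHC class II presentation genes are described here as 10 genes of the mouse genome, chosen by name among the 36464 Ensembl gene IDs of the deposited tables: H2-Aa, H2-Ab1 and H2-Eb1, which encode chains of the class II molecule, Cd74, Ciita, H2-DMa, H2-DMb1, H2-DMb2, H2-Oa and H2-Ob. All 10 were found. The study sequenced poly(A) RNA of cells labelled as enriched CD8+ T cells from percutaneous tumour grafts in wild type male C57BL/6 mice. One group of 6 mice received IgG and the other group of 6 mice received intraperitoneal injections of anti-SIGLEC15, an antibody to a sialic acid binding lectin of myeloid and tumour cells, for 2 weeks, with collection on day 19. Each library was a mixture of 3 cell pellets, so that each group had 2 libraries, and any spread given here lies between pools of mice, not single animals. The ages of the mice, the grafted tumour line and the purity of the enriched cells are not given in the labels.

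Class II molecules carry peptides from engulfed or internal proteins to the cell surface, where CD4+ T cells read them. B cells, dendritic cells and macrophages make them constitutively or on activation, and many other cells can be induced to make them by interferon gamma, which switches on the transactivator CIITA. Mouse T cells are known to make little class II of their own, so these genes also describe the other cells of a CD8-enriched pellet. In bulk libraries such as these, fewer cells of a type and less RNA per cell cannot be told apart.

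CIITA does not bind DNA itself: it is recruited by a factor complex that sits on a conserved pair of promoter elements, the X box (bound by the RFX complex, with a CREB site next to it) and the Y box (bound by NF-Y). Promoters of 7 of the 10 genes could be matched to RefSeq on GRCm38.p6, as 8 windows of 300 bases around an annotated gene start, and 6 of these genes held the Y box letters TGATTGG, which 7.82% of all 32851 promoter windows held on either strand. The stretches of 65 bases around that Y box are shown because they hold letters of these elements, with the searched letters in capitals. TGATTGG was in all 6, ATGATG in 4 of them, and the cyclic AMP response element TGACGTCA in H2-Aa. ATGATG is called the X box core here only as a short search string. An exact search for these letters cannot show that H2-Aa or H2-Oa lacks an X box.
H2-Eb1, chr17:34305761-34305825, plus strand: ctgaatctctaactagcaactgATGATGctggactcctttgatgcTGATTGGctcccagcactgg
H2-DMb1, chr17:34153083-34153147, plus strand: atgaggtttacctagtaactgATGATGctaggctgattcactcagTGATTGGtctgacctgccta
H2-DMb2, chr17:34145112-34145176, plus strand: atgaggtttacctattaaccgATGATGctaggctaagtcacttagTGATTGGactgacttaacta
H2-Ob, chr17:34238801-34238865, plus strand: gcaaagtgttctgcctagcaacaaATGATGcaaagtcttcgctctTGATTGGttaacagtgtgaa
H2-Aa, chr17:34287854-34287918, minus strand: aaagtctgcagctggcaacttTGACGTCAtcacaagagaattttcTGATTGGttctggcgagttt
H2-Oa, chr17:34092289-34092353, plus strand: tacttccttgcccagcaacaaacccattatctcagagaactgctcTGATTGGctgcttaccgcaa

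The Y box began between 45 and 92 bases before the RefSeq start, and the X box core began 21 to 24 bases before the Y box. The X box core was present on either strand in 11.2% of all promoter windows and TGACGTCA in 1.79%, and these letters do not overlap the Y box. An X box core that began 15 to 40 bases before a Y box on the same strand was present in 16 of 32851 windows (0.0487%), and 4 of the 16 were H2-Eb1, H2-DMb1, H2-DMb2 and H2-Ob. The letters were chosen after the promoters of these genes had been read, so this count is a description of the chosen letters. H2-DMa had 2 windows and neither held any of the 3 motifs. The windows show that genes with the paired letters were not uniform in level, since they include an abundant member, H2-Eb1, and the scarcest, H2-Ob.

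Cd8a, a chain of the CD8 coreceptor, measured 115 and 351 RPKM in IgG replicates 1 and 2 and 290 and 315 RPKM in anti-SIGLEC15 replicates 1 and 2, so the labelled cells were present in all 4 libraries. The total of counted reads per library (reads or fragments, which is not stated), recovered from the deposited values, lay between 14854801 and 16026197, and p-values measure only the spread between these 4 libraries. The library labelled IgG replicate 1 stood apart. All 19 of 19 T cell identity genes were lowest there, with a geometric mean of RPKM + 1, less 1, of 26.1, against 69.3 to 75.6 in the other libraries, and 7 of 7 tested neutrophil genes and 9 of 13 tested hepatocyte genes were highest there. Over all 12484 tested genes it was the highest library for 34.0% and the lowest for 43.3%. Fold changes, counts, ratio ranges, profile distances and the ranking of genes are also given without this library.

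The chains of the class II molecule were present at moderate levels in all 4 libraries and were highest in IgG replicate 1. H2-Aa (ENSMUSG00000036594, chromosome 17, 34282744 to 34287823 in GRCm38), the alpha chain of the I-A molecule, measured 32.1 and 5.86 RPKM (reads per kilobase of exon, scaled to the counted reads of the library) in IgG replicates 1 and 2 and 13.8 and 9.20 RPKM in anti-SIGLEC15 replicates 1 and 2. H2-Ab1 (ENSMUSG00000073421, chromosome 17, 34257689 to 34269419), its beta chain, measured 56.1 and 15.99 RPKM in the IgG replicates and 25.2 and 16.3 RPKM in the anti-SIGLEC15 replicates. H2-Eb1 (ENSMUSG00000060586, chromosome 17, 34305867 to 34316674), the beta chain of the I-E molecule, measured 64.6 and 9.58 RPKM in the IgG replicates and 22.0 and 15.8 RPKM in the anti-SIGLEC15 replicates. For each chain the anti-SIGLEC15 libraries lay between the IgG libraries, so the groups overlapped. Between the IgG libraries alone the level differed 5.49-fold for H2-Aa, 3.51-fold for H2-Ab1 and 6.74-fold for H2-Eb1.

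Within a library the chains kept closer proportions. The ratio of H2-Aa to H2-Ab1, both per length, was 0.573 and 0.366 in the IgG replicates and 0.550 and 0.563 in the anti-SIGLEC15 replicates. The ratio of H2-Eb1 to H2-Ab1 ran from 0.599 in IgG replicate 2 to 1.15 in IgG replicate 1. Mice of the C57BL/6 strain carry a deletion in the promoter of the gene for the I-E alpha chain and so make no I-E molecule at the surface. The row of that gene, H2-Ea-ps, had 0 and 1 reads in the IgG libraries and 2 reads in each anti-SIGLEC15 library, where 3 reads would correspond to 0.181 to 0.195 RPKM. H2-Eb2, a further beta chain gene of the locus, had 28 reads in IgG replicate 1 and 5 reads in each of the other libraries. Intervals and floors from reads cover counting error only.

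Cd74, the invariant chain that fills the groove of new class II molecules and guides them to endosomes, was the most abundant member in every library. It lies on chromosome 18 (ENSMUSG00000024610, 60803848 to 60812652) and measured 272 and 57.7 RPKM in IgG replicates 1 and 2 and 78.7 and 72.0 RPKM in anti-SIGLEC15 replicates 1 and 2. Its mean over the libraries, 120 RPKM, was above that of 96.2% of tested genes. IgG replicate 1 was 3.45-fold above the next library, and the other 3 libraries spanned a narrow range. The ratio of Cd74 to H2-Ab1 was 4.84 and 3.61 in the IgG replicates and 3.12 and 4.41 in the anti-SIGLEC15 replicates.

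**Figure D1:**
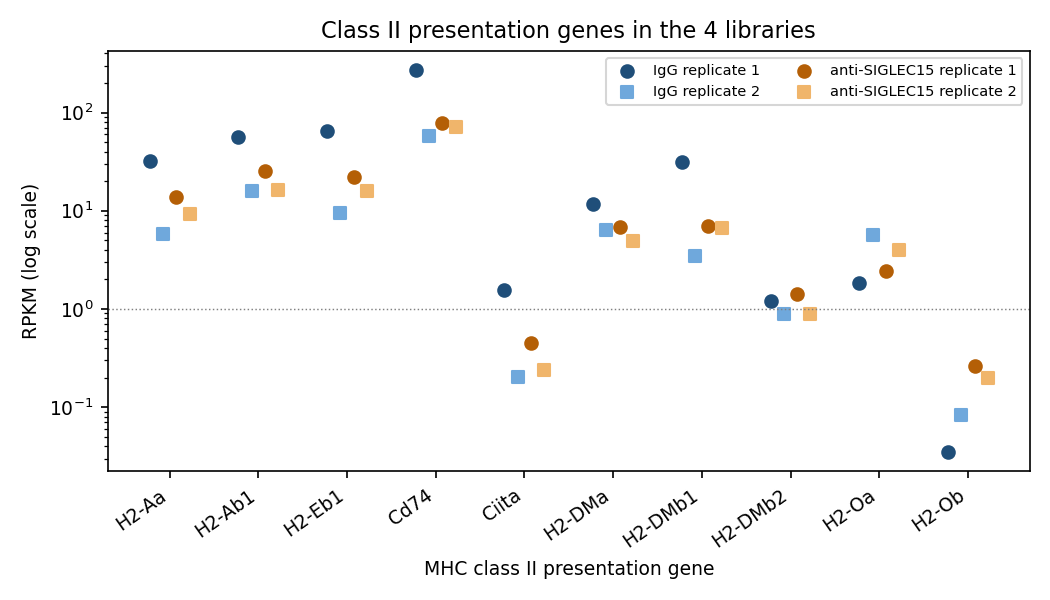
RPKM on a log axis for the 10 class II presentation genes, with 1 point per library (circles for replicate 1, squares for replicate 2; the dotted line marks 1 RPKM). IgG replicate 1 is the highest point for 7 genes, from H2-Aa to H2-DMb1 along the axis, but not for H2-DMb2, H2-Oa and H2-Ob.

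Ciita, the transactivator, followed the same order of libraries at a level too low for the test. It measured 1.56 and 0.203 RPKM in the IgG replicates and 0.454 and 0.240 RPKM in the anti-SIGLEC15 replicates, from 238, 30, 68 and 34 reads (chromosome 16, 10480059 to 10528418, ENSMUSG00000022504). The exact Poisson interval at 95% was 1.37 to 1.77 RPKM in IgG replicate 1 and 0.137 to 0.290 RPKM in IgG replicate 2. Those intervals do not meet, so the gap between the IgG libraries was larger than counting error. Only IgG replicate 1 reached 1 RPKM, and Ciita was left out of the test for that reason. Dexi, a gene of the opposite strand whose span overlaps that of Ciita, measured 3.23 to 3.73 RPKM, and whether the counting used strand is not stated.

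H2-DM is the endosomal exchange factor that removes the invariant chain fragment so that peptides can bind, and its chains did not keep a fixed proportion. H2-DMa (ENSMUSG00000037649, chromosome 17, 34119541 to 34139101), the alpha chain, measured 11.7 and 6.36 RPKM in the IgG replicates and 6.76 and 4.90 RPKM in the anti-SIGLEC15 replicates. H2-DMb1 (ENSMUSG00000079547, chromosome 17, 34153072 to 34160230), a beta chain, measured 31.0 and 3.45 RPKM in the IgG replicates and 7.05 and 6.65 RPKM in the anti-SIGLEC15 replicates. Its level in IgG replicate 1 was 8.99-fold that in IgG replicate 2, the widest gap between the IgG libraries among the members, while for H2-DMa it was 1.85-fold. The ratio of H2-DMa to H2-DMb1 was therefore 0.379 in IgG replicate 1 and 1.84 in IgG replicate 2, with 0.959 and 0.737 in the anti-SIGLEC15 replicates. The span of H2-DMa overlaps that of Brd2 on the opposite strand, which measured 39.0 to 55.1 RPKM, so its reads are uncertain if the counting ignored strand.

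H2-DMb2 (ENSMUSG00000037548, chromosome 17, 34143307 to 34151555), the neighbouring copy of the beta chain gene, was scarce and nearly even across the libraries. It measured 1.21 and 0.886 RPKM in the IgG replicates and 1.42 and 0.886 RPKM in the anti-SIGLEC15 replicates, from 23 to 39 reads. H2-DMb1 exceeded it 25.5-fold in IgG replicate 1, 3.90-fold in IgG replicate 2, and 4.96-fold and 7.50-fold in the anti-SIGLEC15 replicates. For this pair, 26.6% of the 50-base stretches of the longest coding transcript of H2-DMb1 also occur in that of H2-DMb2. Reads of this pair can therefore be shared, and the values of H2-DMb2 are uncertain for that reason. Among the 45 pairs of members it was the only pair with a shared 50-base stretch.

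H2-DO, which restrains H2-DM and is known mainly from B cells, thymic epithelium and some dendritic cells, departed from the order of libraries seen in the class II chains, as H2-DMb2 also did at its highest library and H2-DMa at its lowest. H2-Oa (ENSMUSG00000024334, chromosome 17, 34092340 to 34095234), its alpha chain, measured 1.82 and 5.68 RPKM in the IgG replicates and 2.45 and 4.02 RPKM in the anti-SIGLEC15 replicates, from 41, 124, 54 and 84 reads. It was lowest in IgG replicate 1, where 6 of the 8 tested members were highest and 5 of the 8 lay at least 2-fold above every other library, against 8.06% of all tested genes. H2-Ob (ENSMUSG00000041538, chromosome 17, 34238903 to 34254414), its beta chain, measured 0.0348 and 0.0839 RPKM in the IgG replicates and 0.261 and 0.200 RPKM in the anti-SIGLEC15 replicates, from 3, 7, 22 and 16 reads. Both anti-SIGLEC15 libraries lay above both IgG libraries for H2-Ob, but the exact Poisson intervals of IgG replicate 2 (0.0337 to 0.173 RPKM) and anti-SIGLEC15 replicate 2 (0.114 to 0.325 RPKM) overlap. H2-Ob stayed under 1 RPKM everywhere and was not tested.

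The comparison of anti-SIGLEC15 with IgG asks, from the title of the study, how cells of the tumour change when SIGLEC15 is blocked. For the beta chains and Cd74 the difference between the group means was smaller than the spread between the IgG pools. The IgG mean of H2-Ab1 was 36.1 ± 28.4 RPKM and the anti-SIGLEC15 mean 20.8 ± 6.26 RPKM (SD, n = 2 each). For H2-Eb1 these means were 37.1 ± 38.9 and 18.9 ± 4.43 RPKM, and for Cd74 165 ± 151 and 75.3 ± 4.73 RPKM (SD, n = 2 each). In these genes the SD of the IgG pair was larger than the difference between the means.

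Of the 10 members, 8 passed the filter of 1 RPKM in 2 libraries, all but Ciita and H2-Ob. In limma on log2(RPKM + 1), 0 of the 8 passed a Benjamini-Hochberg adjusted p of 0.05, as did 0% of all 12484 tested genes, of which 146 had an unadjusted p under 0.05. 0 of the 8 had both anti-SIGLEC15 values above both IgG values, against 12.1% of all tested genes, and 0 had both below, against 6.02%. The median log2 fold change of the 8, anti-SIGLEC15 minus IgG, was -0.47, and that of all tested genes was 0.02. On this scale a fold change understates the change of low genes.

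The log2 fold change was -0.29 (SE 0.78) for H2-Aa, -0.55 (SE 0.64) for H2-Ab1, -0.42 (SE 0.88) for H2-Eb1 and -0.73 (SE 0.74) for Cd74. In the peptide exchange group it was -0.52 (SE 0.38) for H2-DMa, -0.61 (SE 0.94) for H2-DMb1 and 0.06 (SE 0.34) for H2-DMb2, and for H2-Oa it was -0.06 (SE 0.51). The limma adjusted p was 1.00 for each of these genes. With 2 libraries against 2, the smallest two-sided exact permutation p is 0.333.

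The sign of these differences turned on the choice of IgG library. Without IgG replicate 1 the log2 fold change was 0.84 for H2-Aa, 0.33 for H2-Ab1, 0.89 for H2-Eb1, 0.38 for Cd74 and 0.82 for H2-DMb1. Without IgG replicate 2 it was -1.43, -1.42, -1.74, -1.84 and -2.03 for the same genes. In that fit these 5 of 8 members passed as lower in limma (adjusted p from 4.45e-09 to 0.000699), where 9.36% of all tested genes passed as lower. The lone IgG library was there assumed to vary like the anti-SIGLEC15 pair. Without IgG replicate 1, where 1.00% of all tested genes passed, both anti-SIGLEC15 values of 6 of the 8 members were above the remaining IgG value, against 26.0% of all tested genes. Without IgG replicate 2, 6 of the 8 lay lower in both, against 36.2%. H2-DMa kept its sign, at -0.12 without IgG replicate 1 and -0.91 without IgG replicate 2.

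**Figure D2:**
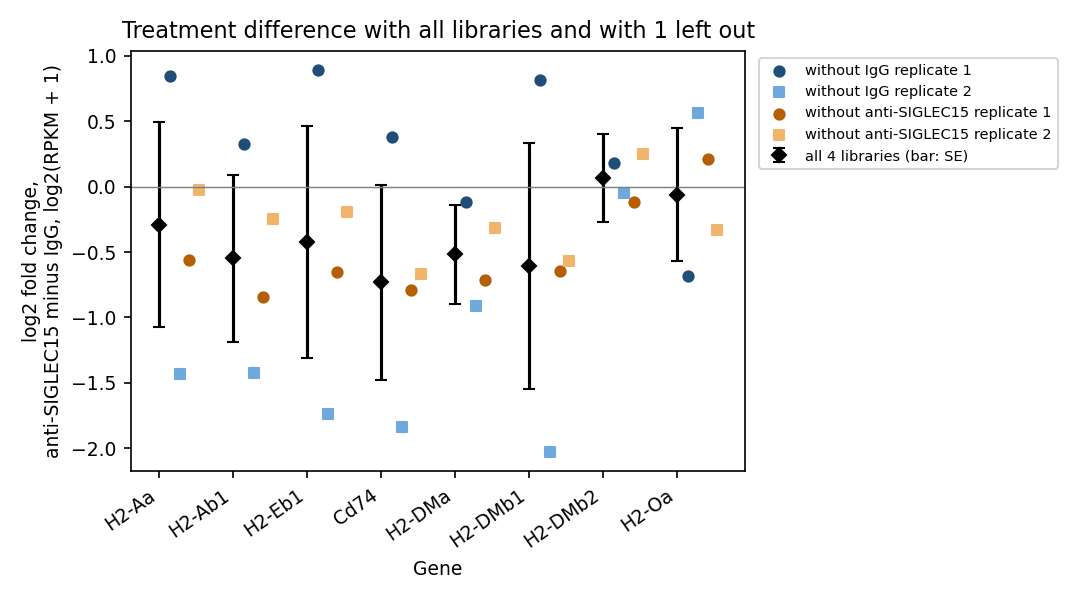
The log2 fold change of the 8 tested members on the log2(RPKM + 1) scale, anti-SIGLEC15 minus IgG, with all 4 libraries (diamonds, bars are SE) and with each library left out (coloured points). For H2-Aa, H2-Ab1, H2-Eb1, Cd74 and H2-DMb1 the point without IgG replicate 1 is above 0 and the point without IgG replicate 2 is below -1.4.

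Of the cells that usually carry class II, B cells left few transcripts in these libraries. All 16 B cell genes were under 1 RPKM in all libraries: Cd79a, part of the B cell receptor, measured 0.129 and 0.266 RPKM in the IgG replicates and 0.481 and 0.554 RPKM in the anti-SIGLEC15 replicates. The highest value of Ms4a1, which encodes CD20, was 0.0515 RPKM. The summed level of the B cell list was 1.00 and 3.17 RPKM under IgG and 3.21 and 2.43 RPKM with anti-SIGLEC15, lowest in IgG replicate 1, where class II was highest. Between 1 and 6 of the 16 genes were at 0 in a library.

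Dendritic cell genes were uneven, and 6 of 16 were under 1 RPKM everywhere. Flt3, the growth factor receptor of these cells, measured 0.0101 and 0.0626 RPKM in the IgG replicates and 0.351 and 0.0763 RPKM in the anti-SIGLEC15 replicates. Xcr1, a chemokine receptor of cross-presenting dendritic cells, measured 0.673, 2.33, 1.29 and 2.07 RPKM in the same order, and Zbtb46, a transcription factor of dendritic cells, 0.359, 0.364, 0.337 and 1.08 RPKM. The genes with the highest level in the list were Ccr7 (27.4 and 56.6 RPKM under IgG, 29.0 and 49.5 RPKM under anti-SIGLEC15), Irf8 and Ly75, and Ccr7 and Irf8 are also known from T cells. Itgax, the integrin chain CD11c, measured 1.55 and 3.14 RPKM in the IgG replicates and 12.2 and 4.05 RPKM in the anti-SIGLEC15 replicates. Ccl22, a chemokine, measured 0.268, 0.249, 4.71 and 0.608 RPKM in the same order, and Fscn1, an actin bundling protein of mature dendritic cells, 0.932, 2.12, 4.78 and 1.68 RPKM. These 3 genes were highest in anti-SIGLEC15 replicate 1, as was the geometric mean of the list. The summed level of the list was 71.9 and 112 RPKM under IgG and 94.2 and 102 RPKM with anti-SIGLEC15, and between 0 and 2 genes were at 0 in a library.

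Of the macrophage genes, 8 of 16 were under 1 RPKM everywhere. Adgre1, which encodes F4/80, measured 0.154 and 0.0796 RPKM in the IgG replicates and 0.0787 and 0.0624 RPKM in the anti-SIGLEC15 replicates. Csf1r, the receptor for the macrophage growth factor, measured 0.864, 0.212, 0.397 and 0.373 RPKM in the same order, and the complement gene C1qa 0.900, 1.86, 0.613 and 1.62 RPKM. The summed level was 110 and 40.9 RPKM under IgG and 54.4 and 80.3 RPKM with anti-SIGLEC15, most of it from Cd14 (65.0, 8.90, 22.0 and 39.3 RPKM) and Cd68 (28.1, 24.5, 24.8 and 31.0 RPKM), and between 0 and 2 genes were at 0. Trem2 and Cd163, genes of tissue macrophages, had at most 0.0130 and 0.0236 RPKM. Cd14 and Lyz2, another gene of the list, had the order of libraries of the neutrophil gene S100a8. S100a8 measured 157 and 11.4 RPKM under IgG and 43.4 and 71.0 RPKM with anti-SIGLEC15. The part of neutrophils in the macrophage sum was not tested.

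By the mean log2(RPKM + 1), class II lay above each of these lists in every library. Genes under 1 RPKM lower the means of these lists. By summed RPKM the dendritic cell list was above the 10 members in IgG replicate 2, at 112 against 106 RPKM. The mean log2(RPKM + 1) of the 10 members exceeded that of the B cell list by 3.69 and 2.29 in IgG replicates 1 and 2 and by 2.69 and 2.51 in anti-SIGLEC15 replicates 1 and 2. It exceeded the dendritic cell list by 2.62 and 1.11 with IgG and by 1.14 and 1.28 with anti-SIGLEC15, and the macrophage list by 2.39 and 1.59 with IgG and by 1.92 and 1.56 with anti-SIGLEC15. These are differences of list means in 1 library, with no test, and their sizes depend on the pseudocount.

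The order of libraries was compared with that of the reference lists. The class II profile, the mean log2(RPKM + 1) of H2-Aa, H2-Ab1, H2-Eb1 and Cd74 centred on the 4 libraries, was 1.36 and -0.86 with IgG and -0.03 and -0.46 with anti-SIGLEC15. The root mean square difference from this profile was 0.42 for the neutrophil list, 0.46 for the hepatocyte list, 0.69 for the macrophage list, 0.89 for the B cell list, 0.97 for the dendritic cell list and 1.45 for the T cell identity list. This measure rests on 4 libraries that share depth and composition, and is a description. Genes under 1 RPKM give nearly flat profiles on this scale. All 16 B cell genes, 6 of 16 dendritic cell genes and 8 of 16 macrophage genes were under 1 RPKM in all libraries. The B cell profile lay between -0.10 and 0.05, so its distance from class II says little about its order of libraries. H2-Oa differed from the class II profile by 1.29 and from the T cell profile by 0.41, and of the 10 members it was the nearest to T cell identity. It lay almost as near to the B cell profile, at 0.44, and to the dendritic cell profile, at 0.52. The list nearest to the class II profile changed with the library left out. It was the neutrophil list without IgG replicate 2 (0.47) and without anti-SIGLEC15 replicate 2 (0.04). The hepatocyte list was nearest without anti-SIGLEC15 replicate 1 (0.30). Without IgG replicate 1 the order of the lists was another: 0.19 for the dendritic cell list, 0.32 for the macrophage list, 0.34 for the B cell list, 0.39 for the T cell identity list, 0.46 for the neutrophil list and 0.47 for the hepatocyte list. H2-Oa was then at 0.73 from the class II profile, at 0.34 from the T cell profile and at 0.40 from the B cell profile. Without IgG replicate 2 the T cell profile was not the nearest to H2-Oa. It was at 0.445, against 0.317 for the B cell list, 0.377 for the dendritic cell list and 0.441 for the macrophage list.

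**Figure D3:**
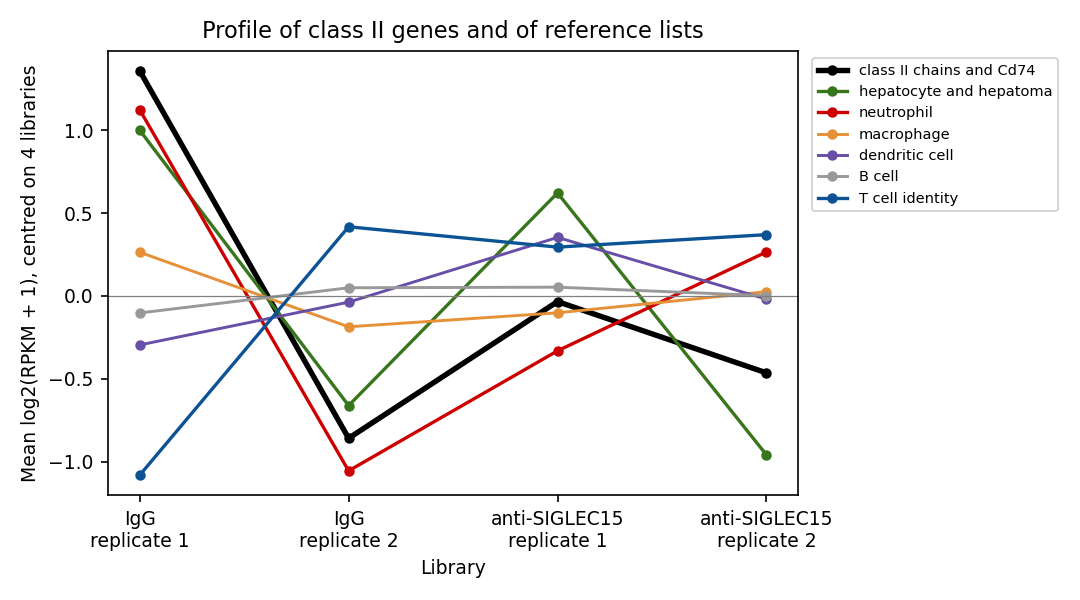
Mean log2(RPKM + 1) of each gene list, centred on its mean over the 4 libraries (1 point per library, lines join points of a list and imply no order). The class II profile (black) is at 1.36 in IgG replicate 1 and at -0.86 in IgG replicate 2, with the T cell identity list at -1.08 and 0.42 in the same libraries.

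The summed RPKM of H2-Aa, H2-Ab1, H2-Eb1 and Cd74 was 425 and 89.1 in IgG replicates 1 and 2 and 140 and 113 in anti-SIGLEC15 replicates 1 and 2, a 4.76-fold range. Divided by the RPKM of Alb, the serum albumin gene, it was 0.152 and 0.160 with IgG and 0.128 and 0.181 with anti-SIGLEC15, a 1.41-fold range. The range was 1.66-fold per RPKM of Trf, which encodes transferrin, and 1.80-fold per RPKM of Afp, the alpha-fetoprotein gene. Per RPKM of the highest macrophage genes it was 3.48-fold for Cd14, 4.16-fold for Cd68 and 2.04-fold for the lysozyme gene Lyz2, and per RPKM of the dendritic cell genes 9.84-fold for Ccr7, 6.38-fold for Irf8 and 2.96-fold for Ly75. Per RPKM of the T cell genes Trac, Thy1 and Cd8b1 the range was 15.9-fold, 12.8-fold and 13.4-fold. Per RPKM of the neutrophil genes S100a9, S100a8 and Retnlg it was 4.13-fold, 4.89-fold and 3.59-fold. Over the 4 libraries the smallest of the 21 ranges was that of Alb. The ranges of Cd14 and Lyz2 fell without anti-SIGLEC15 replicate 2, to 1.58-fold and 1.07-fold. Without IgG replicate 1 they were unchanged, as were those of Alb, Trf and Afp, but those of the T cell genes, dendritic cell genes and Cd68 fell. The range of the class II sum itself was then 1.57-fold. Per RPKM it was 1.65-fold for Trac, 1.91-fold for Thy1 and 1.82-fold for Cd8b1, against 1.41-fold for Alb, 1.66-fold for Trf and 1.80-fold for Afp. The smallest was then that of the endothelial gene Egfl7, at 1.09-fold, but Egfl7 was under 1 RPKM in every library. It had 25 reads in IgG replicate 2 and 37 and 28 reads in anti-SIGLEC15 replicates 1 and 2. The range of Cd68 was 1.55-fold. Among the other 3 libraries the range of Alb was thus below those of the T cell genes. Those of Trf and Afp lay between Trac and Cd8b1. With 3 libraries and a 1.57-fold range of the sum itself, these ranges cannot be told apart. The part of liver-type cells, neutrophils or other cells in the class II level was not tested.

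**Figure D4:**
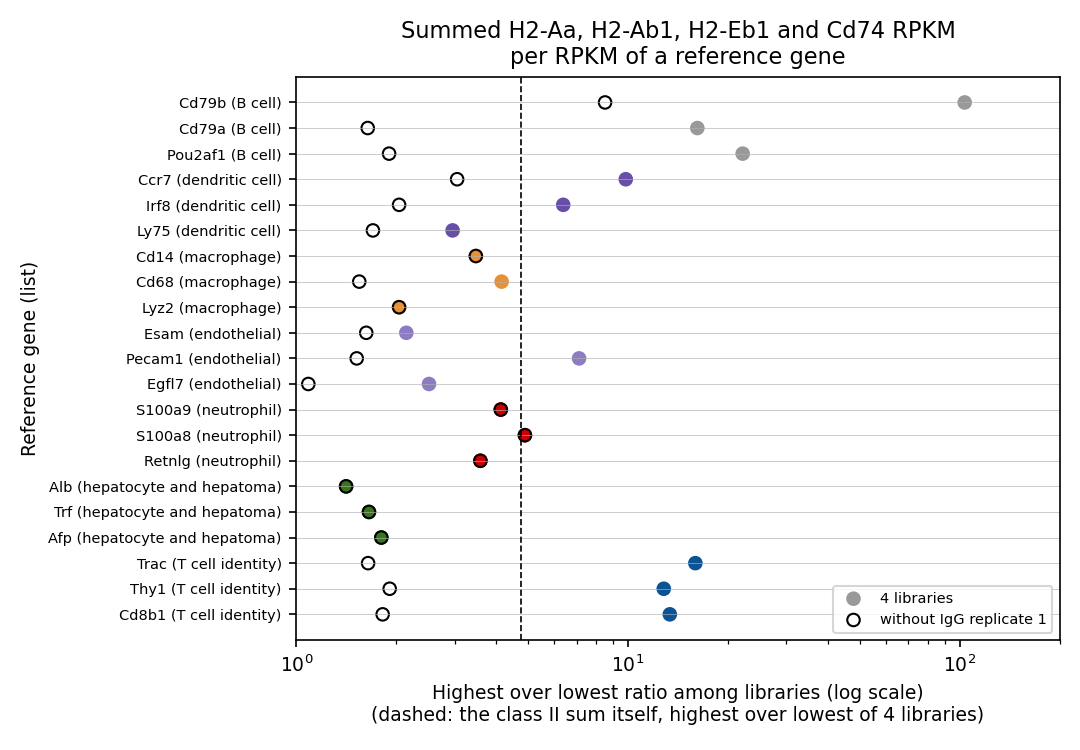
For each of the 3 most abundant genes of 7 reference lists, the filled point gives the highest over the lowest of the 4 library ratios of summed class II RPKM to that gene (log axis), the open point the same without IgG replicate 1, and the dashed line the 4.76-fold range of the sum itself. Filled points of Trac, Thy1 and Cd8b1 lie right of the line, but their open points, at 1.65 to 1.91, lie beside those of Alb, Trf and Afp.

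Among 5981 protein-coding genes with a mean of at least 5 RPKM, the 10 whose centred profile was most like the class II profile were Pdgfa, Rhod, Zfp36, Igfbp3, Cd63, Ctsl, Src, C1s1, F11r and Cttn, with root mean square differences from 0.028 to 0.077 over the 4 libraries. Pdgfa, a growth factor gene, measured 16.7 and 2.91 RPKM under IgG and 5.64 and 4.17 RPKM with anti-SIGLEC15. Ctsl, the sixth, encodes cathepsin L, a lysosomal protease that can cut the invariant chain, and measured 62.8 and 13.7 RPKM under IgG and 25.6 and 17.3 RPKM with anti-SIGLEC15. Of the reference genes that reached this level, 6 of 13 hepatocyte genes stood among the first 598 of the ranking, with Alb at rank 89, and so did 0 of 2 macrophage, 0 of 4 dendritic cell, 0 of 4 neutrophil and 0 of 17 T cell identity genes. No B cell gene reached the level. Without IgG replicate 1 the first 10 held 4 of the same genes, Alb was at rank 225, and 1 of 13 hepatocyte genes stood among the first 598. Without IgG replicate 2 it was 5 of 13 hepatocyte genes and 1 of 4 dendritic cell genes. Without anti-SIGLEC15 replicate 1 it was 9 of 13 hepatocyte genes. Without anti-SIGLEC15 replicate 2 it was 8 of 13 hepatocyte, 1 of 2 macrophage and 1 of 4 neutrophil genes.

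**Figure D5:**
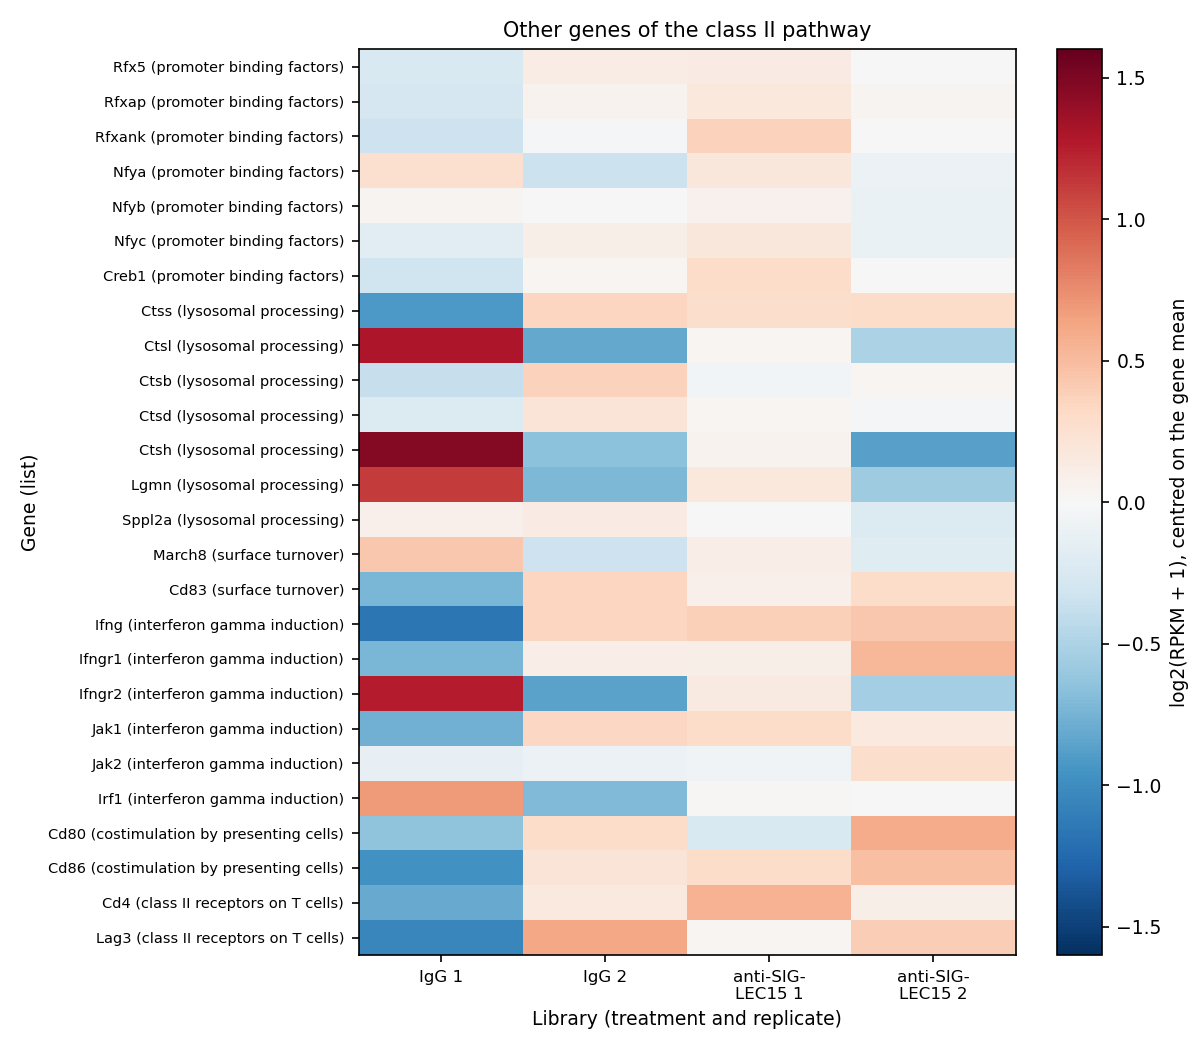
Colour gives log2(RPKM + 1) centred on the mean of each gene for tested genes of the pathway lists (rows) in the 4 libraries (columns). Ctsl, Ctsh, Lgmn and Ifngr2 are dark red in IgG replicate 1, where Ctss, Ifng, Cd86 and Lag3 are blue.

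The other genes of the pathway did not share 1 pattern. Of 32 genes in the pathway lists 27 were tested, and 0 passed in either direction in limma; for 5, including Rfxank, Ifng, Jak2 and Cd86, both anti-SIGLEC15 values were above both IgG values, and for 1 both were below (Sppl2a, which encodes a protease that clears the invariant chain stub), against 12.1% and 6.02% of all tested genes. Their median log2 fold change was 0.21.

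Promoter binding factors varied less between libraries than the class II chains, from 1.15-fold for Nfyb to 2.00-fold for Rfxank. Rfx5, a subunit of the RFX complex that binds the X box, measured 1.70 and 2.47 RPKM in the IgG replicates and 2.48 and 2.17 RPKM in the anti-SIGLEC15 replicates. Nfyb, a subunit of NF-Y, which binds the Y box, measured 10.1 and 9.69 RPKM and 10.3 and 8.98 RPKM in the same order. Of the 7 factors 1 had IgG replicate 1 as its highest library and 5 as their lowest, against 34.0% and 43.3% of all tested genes.

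The lysosomal proteases divided. Ctsh, an aminopeptidase, measured 28.2 and 5.66 RPKM in the IgG replicates and 9.98 and 4.74 RPKM in the anti-SIGLEC15 replicates, and Lgmn, the asparagine endopeptidase, 26.3 and 6.60 RPKM and 13.1 and 7.42 RPKM. Lgmn and Ctsl had the order of the class II chains, while Ctsh was lowest in anti-SIGLEC15 replicate 2. Ctss, the protease best known for the last cut of the invariant chain in B cells and dendritic cells, measured 16.2 and 40.1 RPKM in the IgG replicates and 38.7 RPKM in each anti-SIGLEC15 replicate, and was lowest where class II was highest. Ifi30, the thiol reductase GILT of presenting cells, stayed between 0.191 and 0.789 RPKM.

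Genes of interferon gamma signalling divided likewise. Ifng, the cytokine that T cells make, measured 59.4 and 171 RPKM in the IgG replicates and 174 and 180 RPKM in the anti-SIGLEC15 replicates. Ifngr1, the binding chain of its receptor, measured 89.8 and 161 RPKM and 160 and 217 RPKM. Ifngr2, the signalling chain, measured 10.3 and 1.63 RPKM under IgG and 4.28 and 2.27 RPKM with anti-SIGLEC15, in the order of the class II chains. Irf1, a factor induced by interferon gamma that acts on the Ciita promoter, measured 89.9 and 33.8 RPKM under IgG and 56.3 and 55.9 RPKM with anti-SIGLEC15.

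The costimulatory ligands and the receptors of class II had IgG replicate 1 as their lowest library in 4 of 4 tested genes, against 43.3% of all tested genes. Cd86 measured 1.59 and 4.81 RPKM in the IgG replicates and 5.19 and 6.03 RPKM in the anti-SIGLEC15 replicates. Cd40, which lets T cells license presenting cells, measured 1.67, 0.265, 0.804 and 0.316 RPKM in the same order, too low for the test. Lag3, an inhibitory receptor that binds class II, measured 63.8 and 205 RPKM under IgG and 136 and 175 RPKM with anti-SIGLEC15, and Cd4, the coreceptor for class II, 2.04 and 4.89 RPKM and 6.83 and 4.66 RPKM.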

How the data were processed

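RNA of 4 libraries was sequenced, 2 per treatment, each a mixture of 3 pellets. The authors deposited 1 value per gene ID, read here as RPKM because a value times the exon length in GENCODE M21 was a whole multiple (tolerance 0.02) of 1 step per library for 98.92% to 98.97% of genes under 1000 reads. The builds GRCm38 and mm10 come from the submitters' processing notes; an aligner or counter is not given in the sources used here. From the deposited RPKM, log2(RPKM + 1) was fitted for genes with at least 1 RPKM in 2 libraries by limma (trend, robust), with Benjamini-Hochberg adjustment at 0.05 over all 12484 genes. Reads were recovered from the step. Symbols and coordinates are those of GENCODE M21, promoters those of RefSeq. The fit was tested on simulated reads.

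The members and lists were chosen with earlier results of these data known. All members were named, the 3 most abundant genes and fixed defining genes of each reference list, pathway genes, and the 10 genes nearest to the class II profile. Cd163, Trem2, H2-Ea-ps, H2-Eb2, Dexi, Brd2, Ifi30, Cd40, Itgax, Ccl22 and Fscn1 were named after their values were seen. Some genes of the lists are counted but not reported here by name. Alternatives covered scaling (median of ratios, T cell list), filters (none, 5 RPKM), a pseudocount of 0.1, limma-voom on recovered reads (at least 10 in 2 libraries), a block on replicate number and leaving out each library. Tables were made in Python 3.11.15 (numpy 2.4.6, pandas 2.3.3, scipy 1.17.1), figures in matplotlib 3.10.9 and fits in R 4.3.3 with limma 3.58.1. Motif letters were chosen after the promoters were read.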

Additional observations from a re-analysis of the deposited data

How the results depend on the processing

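No member passed the limma test under any alternative that kept all 4 libraries. With 1 library left out, the genes called ran from 0 to 2129 and the members called from 0 to 5, calls being made without an IgG library only (125 genes without IgG replicate 1). Members higher in every anti-SIGLEC15 library ran from 0 to 6 and members lower from 0 to 6. With 1 library left out the log2 fold changes ran from -1.43 to 0.84 for H2-Aa, -1.42 to 0.33 for H2-Ab1, -1.74 to 0.89 for H2-Eb1, -1.84 to 0.38 for Cd74, -0.91 to -0.12 for H2-DMa, -2.03 to 0.82 for H2-DMb1, -0.12 to 0.25 for H2-DMb2 and -0.68 to 0.56 for H2-Oa. The count of members higher in both anti-SIGLEC15 libraries became 1 with no filter and with limma-voom, since H2-Ob then entered, and the count lower became 1 with median-of-ratios scaling and 1 with T cell list scaling. T cell list scaling moved the median of all genes to -0.55, and H2-DMb2 then turned to -0.35; the other 7 members kept their sign. With the pseudocount of 0.1, the class II mean exceeded the B cell list by 6.02 and 3.96 with IgG and 4.53 and 4.41 with anti-SIGLEC15, the macrophage list by 3.42, 2.69, 3.18 and 2.70 in the same order, and the dendritic cell list by 3.79, 1.93, 1.56 and 2.01. Leaving out each library for the ratio ranges, profile distances and ranking was chosen after seeing the data; the Alb range ran from 1.19 to 1.41 and the Trac range from 1.65 to 15.9.

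The libraries share only a replicate number. Deviations from the group means of same-numbered libraries correlated at 0.33 over 12484 genes, with too few pairs to show a pairing. The replicate block called 0 genes and 0 members, with 303 genes at an unadjusted p under 0.05 against 146. At this depth H2-Ob, H2-Ea-ps and H2-Eb2 rest on few reads.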
